A study of Mus musculus with 4 samples.

Results

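The genes described here encode enzymes that add acetyl groups to histones or remove them, and proteins that recognise acetylated histones. They were taken from a given list of 35 gene symbols by name, with no threshold on a measured value, though earlier results of these data were known when it was drawn up: 10 acetylases, 17 deacetylases (9 zinc-dependent enzymes, 7 sirtuins and the corepressor scaffold Ncor1) and 8 bromodomain readers. Of the 26301 genes with an identifier in the count table, 31 members were found under their current symbol and 4 under an older one (Kat2a as Gcn5l2, Kat2b as Pcaf, Kat5 as Htatip and Hdac7 as Hdac7a), so all 35 were present. RNA was sequenced from mouse embryonic stem cells (ESCs), pluripotent cells that can be kept dividing in culture. The 4 libraries were 2 biological replicates of the N6 line, which is WT, and 2 of the N8 line, which is REST-/-, that is, without a working copy of the gene for the transcriptional repressor REST. Both lines were kept in DMEM with serum and leukemia inhibitory factor, first with feeder fibroblasts and then on gelatin alone, a step meant to free the RNA of feeder transcripts. Each genotype is 1 cell line, so a difference between genotypes and a difference between lines cannot be told apart.

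Acetylation of histone tails is placed by acetylases, removed by deacetylases and recognised by bromodomains, and it marks active promoters and enhancers. REST binds a DNA element called RE1 (repressor element 1) in and near neuronal genes and recruits complexes that contain histone deacetylases, among them the class I enzymes HDAC1 and HDAC2 through SIN3 and CoREST. Hdac1 and Hdac2 are not on the list of members and are given here from a list of partner genes, while Hdac3, the class I enzyme of the NCoR corepressor complexes, is a member. ESCs are known for widely acetylated chromatin, in which p300, CBP, GCN5 and TIP60 take part.

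The libraries held 30953863 and 27061056 counts on genes in WT and 25461270 and 22293966 in REST-/- ESCs. Rest itself, on chromosome 5, had 255 and 233 CPM (gene counts relative to the size of the library, scaled with edgeR's TMM factors) in the WT libraries and 164 and 176 CPM in the REST-/- libraries. It was lower in both REST-/- libraries, with a log2 fold change of -0.52 (SE, the standard error, 0.13) and an edgeR quasi-likelihood adjusted p of 0.526, and summed gene counts do not show which exons the remaining reads cover. Pluripotency genes were abundant in every library (Pou5f1 670 to 751 CPM), but 4 of 10 such genes were lower in REST-/- ESCs by edgeR's quasi-likelihood test at an unadjusted p under 0.05 (0 after adjustment), against 2.86% of all genes. The summed level of the 10 was 5083 and 4954 CPM in WT and 4252 and 4393 CPM in REST-/- ESCs, with the lowest log2 fold change for Zfp42 (-1.36). The summed level of 10 fibroblast genes was 35.7 and 27.7 CPM in WT and 108 and 26.1 CPM in REST-/- ESCs, so the first REST-/- library stood apart. Of the 8 fibroblast genes tested, 7 had log2 fold changes above 0 (median 1.74), 1 of them at an unadjusted p under 0.05, and these 7, collagens and Postn among them, were highest in that library, while Lum was at 0 counts in all 4 libraries. All 10 primitive endoderm genes had log2 fold changes above 0 (median 0.71), 4 of them were higher at an unadjusted p under 0.05 (3.85% of all genes were higher at that p), 6 had both REST-/- libraries above both WT libraries (16.5% of all genes), and their summed level was 133 and 324 CPM in WT and 274 and 432 CPM in REST-/- ESCs. In bulk samples such as these, fewer cells of a type and less RNA per cell cannot be told apart, and the part of these markers in the values below was not tested.

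The RE1 letters were searched in the sequence around the members because REST is the factor missing from the REST-/- line. By RE1 letters are meant only the 12 fixed letters of the motif below, which is 15 bases long. The study tells complete RE1 motifs from partial ones, and this motif was not compared with a complete RE1. The searched motif, nGGnGCTGTCCAnGG with n for any base, was read on both strands of NCBIM37 (mm9), and it is the consensus of that genome under the REST motif sites of the study's region list, which was read in part. The members' matches to all 12 letters within 20 kb of an annotated start site, and their near matches with 1 letter different within 1 kb, are given 1 to a line, 5′ to 3′ on the strand of the motif, with capitals for the bases that match its letters.
Ncoa2, chromosome 1, 13291118 to 13291132, plus strand, in an intron: tGGaGCTGTCCAaGG
Brd3, chromosome 2, 27316200 to 27316214, minus strand, in an intron: gGGgGCTGTCCAtGG
Brd3, chromosome 2, 27331187 to 27331201, plus strand, in an exon: cGGaGCTGTaCAgGG
Hdac7, chromosome 15, 97661644 to 97661658, plus strand, in an intron: gGGcGCgGTCCAgGG
The first 2 sequences hold all 12 letters, 1322 bp and 3429 bp from an annotated start site of Ncoa2 and Brd3. The near matches lie 1 bp and 249 bp from a start site of Brd3 and Hdac7. Of the 34 members with a single position in the annotation, 2 had a match to all 12 letters within 20 kb of a start site, against 1.95% of the 14190 genes scanned, and 0 had one within 1 kb, against 0.19%. With 1 letter allowed to differ, 2 of 34 members had a match within 1 kb, against 4.65% of genes, and 13 of 34 had one within 20 kb, against 31.0%. Of 132 partner genes scanned (subunits of the members' complexes and related enzymes and readers), 1 had a full match within 20 kb and 6 had a near match within 1 kb, and these 6 had log2 fold changes, REST-/- over WT, from -0.37 to 0.71, the last being Gps2. A match is a description of letters and not a measured site of binding, and a missing match does not show that a site is absent. Single letters of the 12 were held by 57.3% to 99.7% of the listed sites, and the share holding all 12 was not computed. Hdac3, which has a listed region within 20 kb of a start site, is not among the matches above.

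Levels of the members differed far more from gene to gene than between the genotypes. Levels are compared between genes as CPM per kilobase of exon, for the 34 members with a single annotated exon length (Hdac4 has 2 gene models and was left out). Hat1, the acetylase that acts on newly made histone H4, was highest, at 162 ± 22.2 per kilobase in WT and 146 ± 15.7 in REST-/- ESCs (SD, n = 2 each). Elp3, the catalytic subunit of Elongator, followed at 79.0 ± 10.4 in WT, then Kat2a (GCN5) at 62.2 ± 0.209 and Brd2 at 61.0 ± 4.98. The lowest was Hdac9, a class IIa deacetylase known from muscle and brain, at 0.206 ± 0.0656 in WT and 0.160 ± 0.0470 in REST-/- ESCs. The order was not fine-grained, since 24 of the 33 pairs of neighbours in it had overlapping WT libraries, among them Kat2a and Brd2, and the run from Ep300 to Brpf1. By group, the median WT level was 144 CPM for the acetylases, 16.5 CPM for the deacetylases and 150 CPM for the readers, against 20.7 CPM over the 15444 genes tested.

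**Figure D1:**
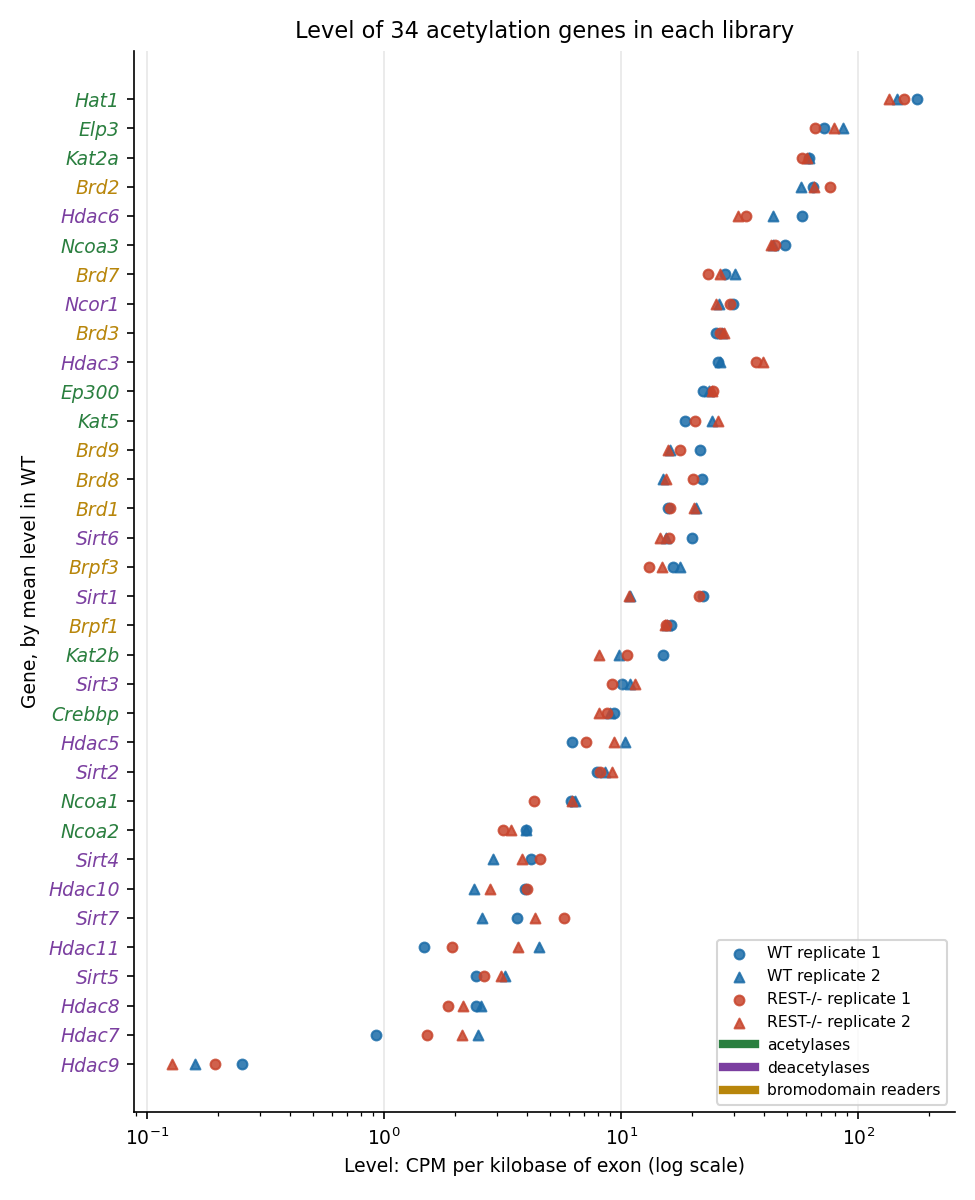
Level of 34 members in each of the 4 libraries, as CPM per kilobase of exon on a log axis, ordered by the WT mean. Circles are replicate 1 and triangles replicate 2, blue is WT and red REST-/-, and the colour of the gene name gives the group. Hat1 sits highest, at 162 per kilobase in WT, and Hdac9 lowest, at 0.206, while the 4 points of most genes lie close together.

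Between the genotypes, no member passed the test on genotype alone. A fit that also held the replicate number did call members. It is given in the closing section, since no label links same-numbered libraries. edgeR's quasi-likelihood test gave 0 of 35 members with an adjusted p under 0.05, where 9 of 15444 genes were called (0.0583%), and the other fits without a replicate term also called 0. Of all genes, edgeR called 0.0648% with RLE or upper quartile factors, 0.257% without a filter on low counts and 0.0209% with a stricter one, and its exact tests with tag-wise and common dispersion called 1.51% and 2.22%. DESeq2 called 1.54%, and the fits without 1 library called 0.455% and 0.711% (a WT library left out) and 0.431% and 0.376% (a REST-/- library left out). At an unadjusted p under 0.05 there were 2 members, Hdac3 with a higher and Hdac6 with a lower value, against 6.71% of all genes tested. The median log2 fold change of the members was -0.051, beside -0.00466 over all genes. It was -0.13 for the acetylases, -0.012 for the deacetylases and -0.052 for the readers. With a library left out these medians ranged from -0.096 to -0.026 for all members, -0.16 to -0.070 for the acetylases, -0.10 to 0.13 for the deacetylases and -0.12 to -0.014 for the readers, and that of the deacetylases also turned sign with library totals (0.00122). Both REST-/- libraries lay above both WT libraries for 4 members (Hdac3, Sirt7, Ep300 and Brd2), where 16.5% of all genes do so. Both lay below for 8 members (Hdac6, Hdac8, Kat2a, Crebbp, Ncoa2, Brd7, Brpf1 and Brpf3), where 15.4% do. An absolute log2 fold change of 0.3 or more was reached by 6 members, against 33.0% of genes. The 95% interval of the fold change stayed within a 2-fold change either way for 26 of 35 members (9 of 10 acetylases, 9 of 17 deacetylases, 8 of 8 readers), against 50.8% of genes. The median WT level of the members was 68.8 CPM against 20.7 CPM over all genes, though that of the deacetylases was 16.5 CPM. The part of level in these shares was not tested.

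**Figure D2:**
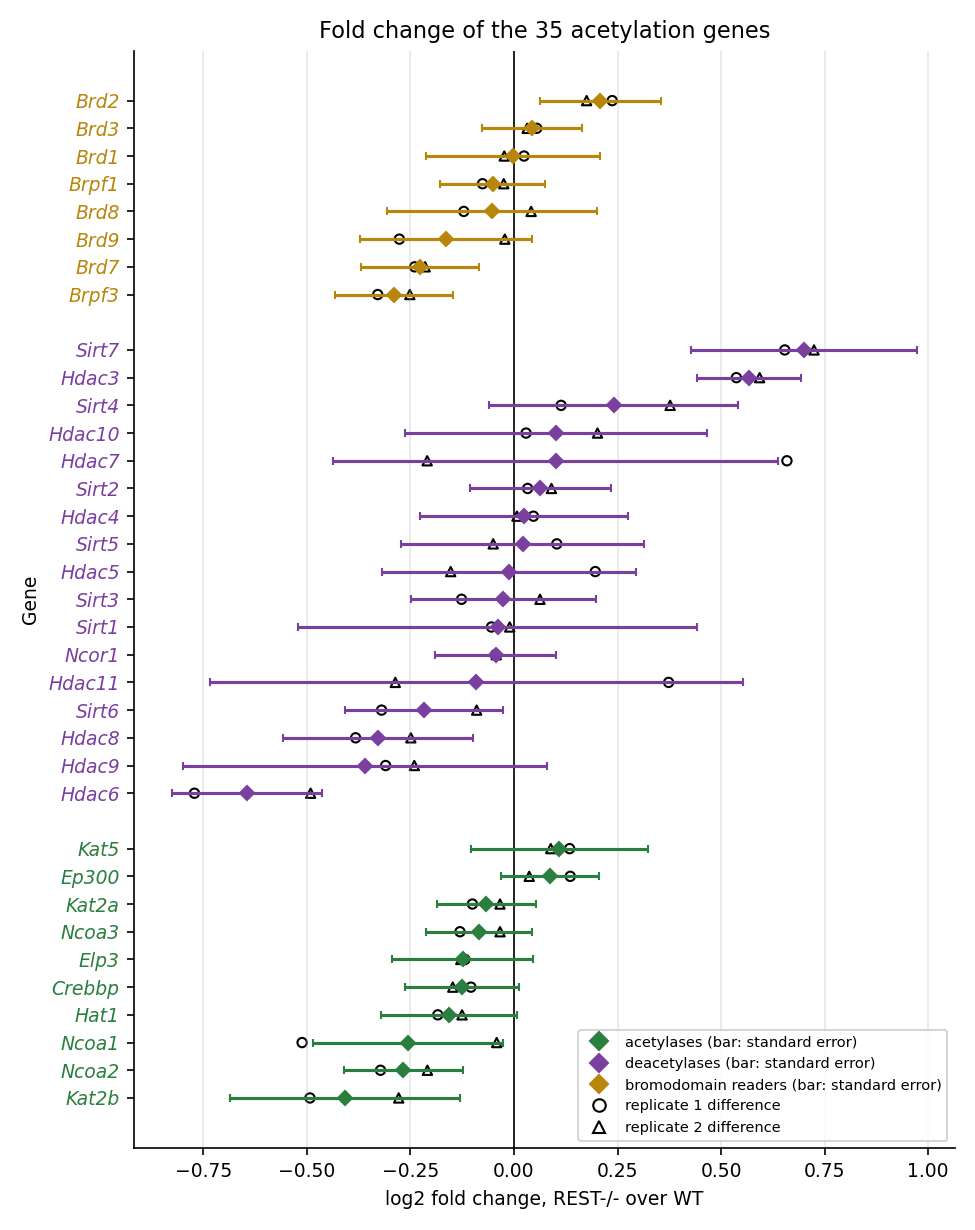
log2 fold change of each of the 35 members, REST-/- over WT, with its standard error from edgeR (diamonds and bars), and the REST-/- minus WT difference in log2(CPM + 0.5) within replicate 1 (open circles) and replicate 2 (open triangles). Sirt7 at 0.70 and Hdac3 at 0.57 lie farthest to the right and Hdac6 at -0.65 farthest to the left.

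Of the acetylases, 8 of 10 had a log2 fold change below 0, as 50.8% of all genes did, though Elp3, 1 of the 8, turned sign without the second WT or the first REST-/- library. For Hat1, the most abundant member of the group, the WT libraries gave 514 and 423 CPM and the REST-/- libraries 452 and 388 CPM, which overlap. Its log2 fold change was -0.16 (SE 0.16), and -0.29 to -0.017 with a library left out. For Ncoa1, the least abundant of the group in CPM and a coactivator of nuclear receptors, the WT libraries gave 44.9 and 46.9 CPM and the REST-/- libraries 31.4 and 45.5 CPM. The first REST-/- library was low and the second close to WT. Ncoa2, a second coactivator of that family and the gene with the RE1 letters in its intron, gave 57.0 and 57.2 CPM in WT and 45.5 and 49.4 CPM in REST-/- ESCs. Its groups did not overlap, and its log2 fold change of -0.27 (SE 0.14) had an edgeR quasi-likelihood adjusted p of 0.945. Kat2b (PCAF) had the lowest log2 fold change of the group, at -0.41 (SE 0.28), over libraries that overlap, at 73.0 and 47.8 CPM in WT against 51.7 and 39.3 CPM. Without the first WT library its value was -0.076.

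Several acetylases have close relatives on the list, and these were compared by level. Per kilobase, Kat2a exceeded Kat2b, the other acetylase of SAGA and ATAC complexes, by a ratio of 5.24 ± 1.56 in WT and 6.49 ± 1.48 in REST-/- ESCs (SD, n = 2 each). Ep300, which encodes the enhancer acetylase p300, exceeded its relative Crebbp (CBP) by a ratio of 2.50 ± 0.164 in WT and 2.89 ± 0.112 in REST-/- ESCs. The ratio was higher in both REST-/- libraries, with Ep300 at 250 and 264 CPM in WT against 275 and 271 CPM, and Crebbp at 70.2 and 67.5 CPM against 65.3 and 60.9 CPM. Neither gene passed the test, with log2 fold changes of 0.086 (SE 0.12) and -0.13 (SE 0.14). Ncoa3, whose span overlaps Sulf2 on the other strand, exceeded Ncoa1 by a ratio of 7.42 ± 0.818 and Ncoa2 by 11.7 ± 0.961 in WT. Kat5 (TIP60), the acetylase of the NuA4 complex, had a log2 fold change of 0.11 (SE 0.21), and its exons lie partly over Rnaseh2c on the other strand. Elp3, Kat2a and Ncoa3 had log2 fold changes of -0.12, -0.067 and -0.084.

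Of the 9 zinc-dependent deacetylases, those with the lowest p values were Hdac3, higher, and Hdac6, lower in REST-/- ESCs. Hdac3, on the minus strand of chromosome 18 from 38095498 to 38114642 in mm9, gave 103 and 105 CPM in the WT libraries and 149 and 159 CPM in the REST-/- libraries. The groups stood well apart and the replicates of each were close. The log2 fold change was 0.57 (SE 0.13), a fold of 1.48, with unadjusted and adjusted p values of 0.00816 and 0.450 by edgeR's quasi-likelihood test. The differences within replicates 1 and 2 were 0.54 and 0.59 in log2(CPM + 0.5). With each library left out in turn the log2 fold change ranged from 0.52 to 0.62, and it was 0.62 without the REST-/- library with the higher fibroblast sum.

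The other class I genes had log2 fold changes below 0, and their difference from Hdac3 was not tested. Hdac8, the other class I member, is on chromosome X from 99479978 to 99700698 and gave 11.9 and 12.4 CPM in WT and 8.98 and 10.4 CPM in REST-/- ESCs. With a log2 fold change of -0.33 (SE 0.23), the ratio of Hdac3 to Hdac8 per kilobase went from 10.3 ± 0.171 in WT to 19.2 ± 1.11 in REST-/- ESCs (SD, n = 2 each). Hdac1 gave 103 and 101 CPM in WT and 74.0 and 84.5 CPM in REST-/- ESCs, a log2 fold change of -0.36 (SE 0.14) with an edgeR quasi-likelihood adjusted p of 0.769. Hdac2 gave 189 and 140 CPM in WT and 175 and 142 CPM in REST-/- ESCs, which overlap, with a log2 fold change of -0.051 (SE 0.21). Per kilobase in WT, Hdac2 stood at 36.7 ± 7.66, Hdac1 at 29.6 ± 0.260 and Hdac3 at 25.9 ± 0.441.

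HDAC3 is active as part of the NCoR complex, and other genes listed with that complex, not all of them core subunits, were read beside it. Ncor1, the scaffold among the members and the deacetylase group's highest gene in CPM, gave 380 and 331 CPM in WT and 368 and 321 CPM in REST-/- ESCs, a log2 fold change of -0.044 (SE 0.15). Its span holds part of Ttc19 on the other strand. Gps2, a subunit that binds the scaffold, gave 29.7 and 23.9 CPM in WT and 51.2 and 36.7 CPM in REST-/- ESCs. Both REST-/- libraries were above both WT libraries, the log2 fold change was 0.71 (SE 0.24, and 0.46 to 0.93 with a library left out), and the edgeR quasi-likelihood adjusted p was 0.707. The X-linked subunit Tbl1x gave 114 and 115 CPM in WT and 94.4 and 101 CPM in REST-/- ESCs, a log2 fold change of -0.23 (SE 0.13). Tbl1xr1 and Cops2 had log2 fold changes of -0.084 and 0.022. Of the 5 genes on the list of this complex, 2 were above and 3 below 0, with a median of -0.084.

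**Figure D3:**
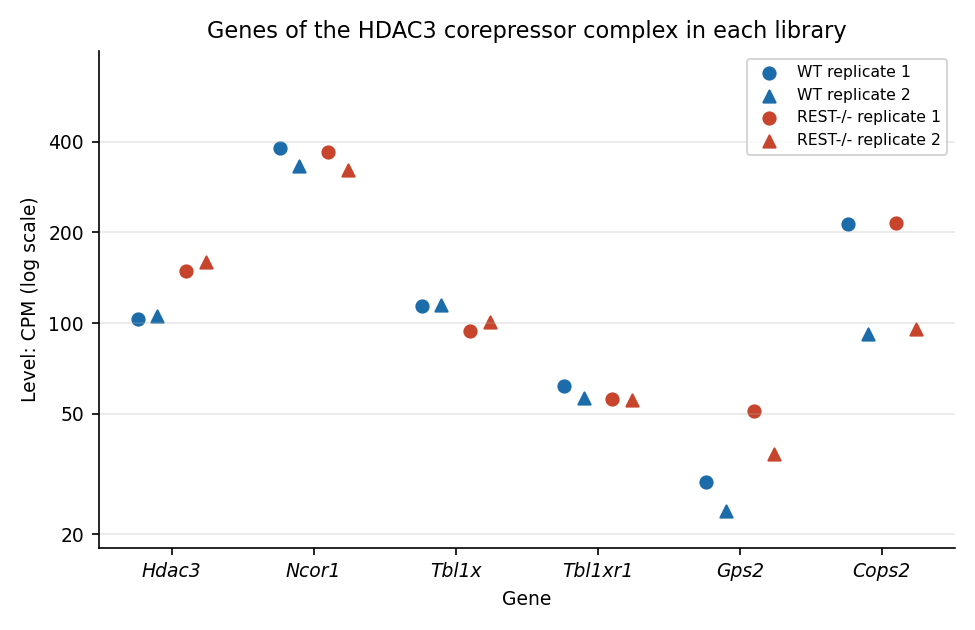
CPM of Hdac3, Ncor1 and 4 partner genes in each library, on a log axis (circles, replicate 1; triangles, replicate 2; blue, WT; red, REST-/-). The red points of Hdac3 (149 and 159 CPM) and Gps2 (51.2 and 36.7 CPM) lie above the blue ones, those of Tbl1x lie below, and Cops2 separates by replicate number.

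Hdac3 has a near neighbour whose value was also higher. Rell2, chosen after its values were seen, is transcribed away from Hdac3 on the plus strand, and the nearest start sites of the 2 genes are 571 bp apart. It gave 0.969 and 1.38 CPM in WT and 9.87 and 9.12 CPM in REST-/- ESCs, a log2 fold change of 3.01 (SE 0.32) with an edgeR quasi-likelihood adjusted p of 0.113. The readable portion of the study's list of REST regions places a region within 20 kb of a start site of Hdac3. It does so too for the partner genes Gps2, Jade2 and Ruvbl2. These partners had log2 fold changes of 0.71, 0.041 and 0.18, and no share was computed, since the list was read in part. In this annotation the spans of Hdac3 and Rell2 do not overlap, and whether the counting used strand is not given in the sources used here.

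Hdac6, a class IIb deacetylase that acts mainly on tubulin and other cytoplasmic proteins, is on chromosome X from 7507246 to 7525015. It gave 336 and 254 CPM in WT and 197 and 181 CPM in REST-/- ESCs. Both REST-/- libraries were lower, and the 2 WT libraries differed more from each other than the REST-/- libraries did. The log2 fold change was -0.65 (SE 0.18), a fold of 0.639, with unadjusted and adjusted p values of 0.0194 and 0.614 by edgeR's quasi-likelihood test. The other class IIb gene, Hdac10, gave 13.3 and 8.14 CPM in WT and 13.6 and 9.44 CPM in REST-/- ESCs, a log2 fold change of 0.10 (SE 0.36). Hdac6 exceeded Hdac10 per kilobase by a ratio of 16.4 ± 2.48 in WT and 9.76 ± 1.94 in REST-/- ESCs.

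Both X-linked members had lower values, and so did most of their chromosome. The median log2 fold change of the 540 tested genes on X was -0.40 and 84.4% of them were below 0, while the medians of the 18 autosomes other than chromosome 8 lay between -0.024 and 0.079. Within X, 21.3% of genes had a lower value than Hdac6 and 56.9% a lower value than Hdac8, so Hdac8 was above the median of X and Hdac6 below it. Relative to that median, Hdac6 was at -0.25 and Hdac8 at 0.073. Chromosome 8, where Brd7 lies, had a median of -0.14 over 760 genes, and Brd7 was at -0.092 relative to it. The part of the chromosome-wide values in those of Hdac6, Hdac8 and Brd7 was not tested.

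**Figure D4:**
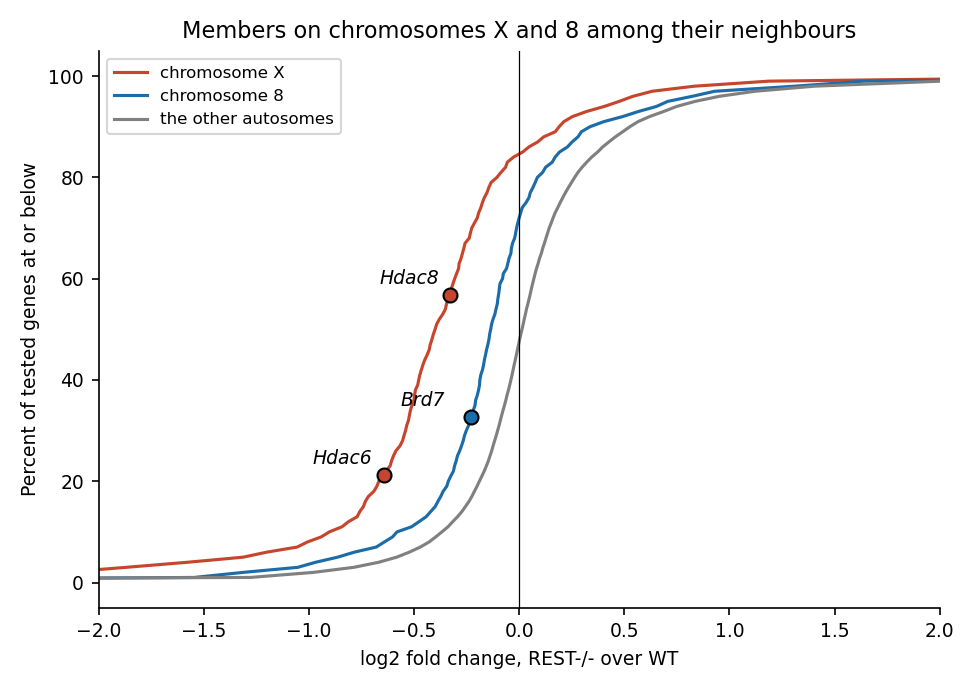
Cumulative share of tested genes (percent, vertical axis) against log2 fold change, REST-/- over WT, for chromosome X (red), chromosome 8 (blue) and the other autosomes (grey), shown from -2 to 2. Hdac6 and Hdac8 are marked on the curve of X, at 21.3% and 56.9%, and Brd7 on that of chromosome 8, at 32.8%.

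The class IIa enzymes, which act with NCoR and have little deacetylase activity of their own, showed no separation between the genotypes. Hdac4 had 45.3 ± 10.1 CPM in WT and 46.0 ± 9.42 CPM in REST-/- ESCs, and Hdac5 had 73.0 ± 26.1 and 72.4 ± 13.9 CPM (SD, n = 2 each). Hdac7, which holds 1 of the near matches to the RE1 letters and overlaps Slc48a1 on the other strand, gave 5.14 and 13.7 CPM in WT and 8.40 and 11.8 CPM in REST-/- ESCs. Hdac9 gave 2.42 and 1.53 CPM in WT and 1.86 and 1.22 CPM in REST-/- ESCs, and its interval for the log2 fold change ran from -1.52 to 0.81. Hdac11, the only class IV enzyme, gave 5.65 and 17.4 CPM in WT and 7.47 and 14.2 CPM in REST-/- ESCs, with an interval from -1.80 to 1.62. These intervals, and one from -1.32 to 1.52 for Hdac7, include a 2-fold fall of each of the 3 genes, and those of Hdac7 and Hdac11 also a 2-fold rise.

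Of the 7 sirtuins, the NAD-dependent deacetylases, 6 had overlapping libraries, as 68.0% of all genes did. The exception was Sirt7, a nucleolar enzyme that acts on acetylated lysine 18 of histone H3, on chromosome 11 from 120479686 to 120486554. It gave 18.6 and 13.3 CPM in WT and 29.6 and 22.3 CPM in REST-/- ESCs. Both REST-/- libraries were above both WT libraries, and the higher library of each genotype was replicate 1. The log2 fold change was 0.70 (SE 0.27), a fold of 1.62, with unadjusted and adjusted p values of 0.0562 and 0.772 by edgeR's quasi-likelihood test, and the differences within replicates 1 and 2 were 0.65 and 0.72. Sirt6, a second nuclear sirtuin, had a log2 fold change of -0.22 (SE 0.19, and -0.38 to -0.031 with a library left out), and its ratio to Sirt7 per kilobase was 5.73 ± 0.345 in WT and 3.05 ± 0.413 in REST-/- ESCs. The mitochondrial sirtuins Sirt3, Sirt4 and Sirt5 had log2 fold changes of -0.026, 0.24 and 0.021 at 6.14 to 16.5 CPM in WT, and the mainly cytoplasmic Sirt2 was at 0.064. Sirt2 and Sirt3 overlap neighbouring genes on the other strand (Nfkbib, Ric8a and Psmd13).

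Sirt1, the best known sirtuin, differed more between replicates than between genotypes, and was singled out after its values were seen. It gave 118 CPM in WT replicate 1 and 113 CPM in REST-/- replicate 1, against 58.0 and 57.6 CPM in the second replicates. The genotype difference was -0.054 within replicate 1 and -0.010 within replicate 2 in log2(CPM + 0.5), while replicate 1 minus replicate 2 was 1.01 in WT and 0.97 in REST-/- ESCs. The same held in the other direction for Hdac11, at -1.54 in WT and -0.88 in REST-/- ESCs, and Hdac10 differed by 0.68 and 0.51. These 3 members were the ones with a difference of 0.5 or more between replicates in both genotypes, where 19.8% of all genes had one. Between replicates, 34 of 35 members differed in the same direction in both genotypes (82.5% of all genes), 16 higher in replicate 1 and 18 higher in replicate 2, and Ep300 was the exception. For 23 of 35 members the difference between replicate numbers was larger than that between genotypes (64.5% of all genes), among them 13 of 17 deacetylases. What the replicate numbers stand for is not given in the labels.

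**Figure D5:**
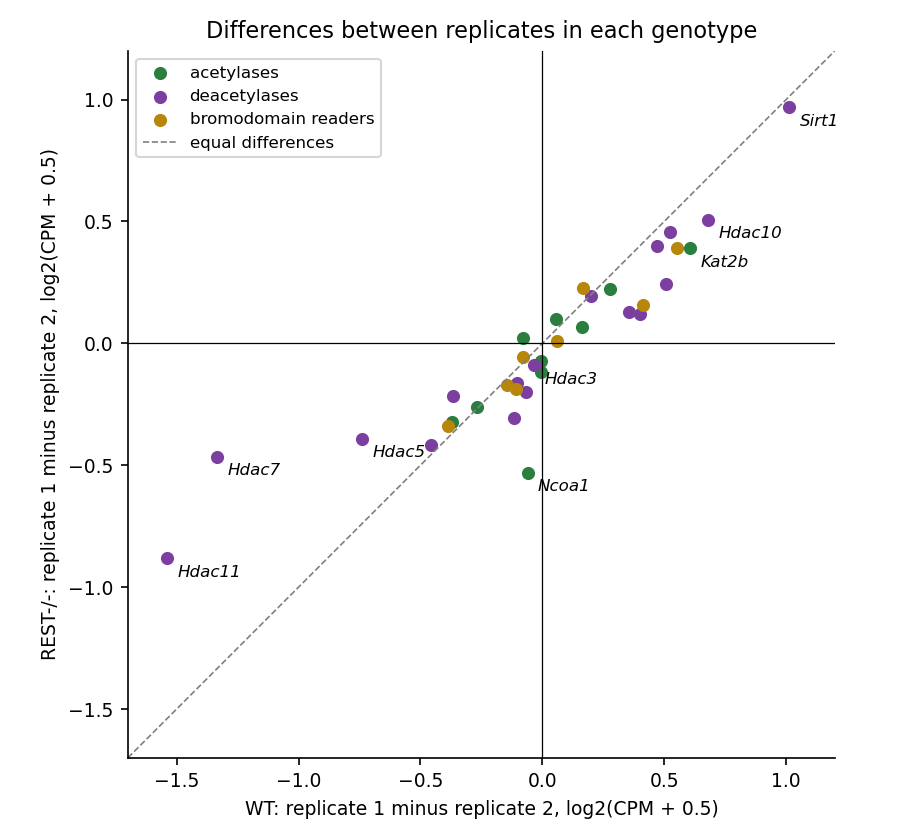
Replicate 1 minus replicate 2 in log2(CPM + 0.5) for the 35 members, in WT (horizontal) and in REST-/- ESCs (vertical), coloured by group, with a dashed line where both are equal. Sirt1 lies at 1.01 and 0.97 and Hdac11 at -1.54 and -0.88, and most points lie near the dashed line, with Hdac7, Hdac11 and Ncoa1 farther from it.

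All 8 bromodomain readers had an absolute log2 fold change under 0.3. Brd2, a reader of the BET family that binds acetylated histone H4, was the most abundant, with 459 and 409 CPM in WT and 541 and 462 CPM in REST-/- ESCs. The groups did not overlap, though the lower REST-/- library was close to the higher WT library, and the log2 fold change was 0.21 (SE 0.15, and 0.094 to 0.31 with a library left out). Brd3, the BET gene with the RE1 letters in an intron and a near match at a start site, gave 185 and 196 CPM in WT and 192 and 200 CPM in REST-/- ESCs. The log2 fold change of Brd3 was 0.043 (SE 0.12), with an interval from -0.28 to 0.37. Brd9, a subunit of a SWI/SNF remodeller, was the least abundant reader, at 51.6 and 38.6 CPM in WT and 42.5 and 38.0 CPM in REST-/- ESCs.

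Brpf1 and Brpf3 encode scaffolds of MOZ and HBO1 acetylase complexes and stood at nearly the same level per kilobase in WT, with a ratio of 0.931 ± 0.0782. Brpf3 gave 119 and 128 CPM in WT and 94.4 and 108 CPM in REST-/- ESCs, a log2 fold change of -0.29 (SE 0.14) with an edgeR quasi-likelihood adjusted p of 0.905. Brpf1 was at -0.051 (SE 0.13), and Brd1, another scaffold of this kind, at -0.0025 (SE 0.21), with its libraries set apart by replicate number. Brd7, a subunit of another SWI/SNF remodeller, gave 144 and 159 CPM in WT and 122 and 137 CPM in REST-/- ESCs, a log2 fold change of -0.23 (SE 0.14). Brd8, a NuA4 subunit, was at -0.053 (SE 0.25).

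The genes that work with the members were read from the same fit. Of 140 partner genes in 12 lists, 137 were tested, and edgeR's quasi-likelihood test called 0, as did DESeq2 and both exact tests. At an unadjusted p under 0.05 there were 1 with a higher value, Gps2, and 3 with a lower one, Brwd1, Morf4l1 and Sin3b, where 3.85% and 2.86% of all genes were higher and lower at that p. Their median log2 fold change was -0.00325, and 66 were above and 71 below 0. Brwd1, a bromodomain protein, gave 156 and 172 CPM in WT and 103 and 117 CPM in REST-/- ESCs, a log2 fold change of -0.57 (SE 0.14). The largest positive value among the other bromodomain proteins was 0.50 for Baz1a, a subunit of ISWI remodellers.

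Among the acetylase complexes, the SAGA and ATAC subunits ran from -0.14 (Wdr5) to 0.23 (Zzz3), and all 23 were under 0.3 in size. Those of NuA4 ran from -0.50 for Morf4l1, a chromodomain subunit, to 0.18 for Ruvbl2, an ATPase. The MOZ, HBO1 and MSL subunits ran from -0.32 for the X-linked Jade3 to 0.097 for Kansl2, and the Elongator subunits from -0.13 (Elp4) to 0.13 (Elp5). The other acetylases ran from -0.38 for Clock, the circadian regulator, to 0.16 for the tubulin acetylase Atat1, and the YEATS and double PHD finger readers from -0.60 (Dpf1) to 0.27 (Phf10). Among the deacetylase complexes, SIN3 ran from -0.36 for Sin3b, on chromosome 8, to 0.11 for the histone chaperone Rbbp4, NuRD from -0.24 (Mta1) to 0.55 (Mbd2, a methyl-DNA-binding subunit), and the CoREST and MIER genes from -0.33 (Mier3) to 0.13 (Phf21a). With a library left out these values ranged from -0.23 to -0.054 for Wdr5, 0.011 to 0.48 for Zzz3, 0.086 to 0.26 for Ruvbl2, -0.25 to -0.013 for Elp4, 0.076 to 0.19 for Elp5, -0.86 to -0.35 for Dpf1, -0.41 to -0.049 for Mta1, 0.35 to 0.72 for Mbd2 and -0.57 to -0.12 for Mier3.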

How the data were processed

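RNA was measured in 2 WT and 2 REST-/- ESC libraries. The authors made TruSeq libraries from total RNA, aligned reads using Subread and counted them per gene by featureCounts (build mm9, per the submitters' processing notes). The deposited values are whole-number counts per gene, with no normalization, and 368 of 26669 rows without an identifier were left out. The gene annotation and strand setting of the counting are not given in the sources used here.

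Counts were compared in R 4.3.3 with edgeR 4.0.16 by its quasi-likelihood test on genotype alone, after TMM scaling and filterByExpr, with a prior count of 0.125 and a Benjamini-Hochberg threshold of 0.05, over all 15444 genes that passed the filter, which included every member. All p-values rest on 2 libraries of 1 line per genotype. Differences within a replicate number are of log2(CPM + 0.5), without a test. GENCODE M1 on NCBIM37 (mm9) gave the positions, and names came from the RefSeq table of GRCm38.p6 for 24191 identifiers. Start sites were scanned for the RE1 letters on both strands. The fits were tested on simulated counts, and the motif search on planted copies of its own letters. Those counts held changes larger than any member's and no difference between replicate numbers. They therefore do not show how the fits perform on changes of the members' size.

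The members and lists were chosen with earlier results of these data known. Library values are given in full for members that were called, for those of non-overlapping groups with an absolute log2 fold change of 0.3 or more, and for the highest and lowest of each group. Those of other members and of Rell2 were chosen after the values were seen. From each other list the genes of the largest positive and negative log2 fold change are named. For the marker lists these log2 fold changes were 0.19 (Utf1) and -1.36 (Zfp42) for pluripotent cells, 2.35 (Postn) and -0.18 (Thy1) for fibroblasts, 2.69 (Cubn) for primitive endoderm, 0.48 (Nes) and -0.75 (Pax6) for neural progenitors, and 1.29 (Nefl) and -0.66 (Gad1) for neurons, with 0 genes called. Alternatives were RLE, upper quartile, library-total and autosomal scaling, no or a stricter filter on low counts, a prior count of 2, the exact tests of edgeR, DESeq2 1.42.0, a replicate block and each library left out.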

Additional observations from a re-analysis of the deposited data

How the results depend on the processing

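The precision of every value here is set by 2 libraries per genotype. A fit that held the replicate number as a replicate block called 8 of 35 members (Hdac3, Sirt7, Brd2, Hdac6, Kat2b, Ncoa2, Brd7 and Brpf3) where 2621 of all genes were (17.0%), and 24 of 137 partner genes. The differences between replicates correlated across 15444 genes at 0.81 between the genotypes, but no label links same-numbered libraries, so the pairing was not established. Under the other 14 alternatives 0 members were called, and their lowest adjusted p was 0.262. The genes called over all genes were 10 with RLE and with upper quartile factors, 53 without the filter on low counts, 3 with at least 10 counts in every library, 233 and 343 with the exact test at tag-wise and common dispersion, 238 with DESeq2, and 60 to 113 with a library left out. The median of the deacetylases was 0.024 with the block. The group medians with a library left out were lowest and highest without the second and the first REST-/- library for all members and the deacetylases, without the second WT and the first REST-/- library for the acetylases, and without the second and the first WT library for the readers.

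Across 525 member values under the alternatives, 37 turned sign, in 18 members, and 17 members kept theirs, Hdac3, Hdac6, Hdac8 and Sirt7 among them. Apart from left-out libraries, Brd1 turned with upper quartile factors (0.000429), library totals (0.010) and the replicate block (0.000411), Hdac5 with library totals (0.00122) and the block (0.019), and Hdac11 with the block (0.024). With a library left out, the log2 fold changes that turned ranged from -0.070 to 0.31 for Kat5, -0.27 to 0.018 for Elp3, -0.21 to 0.27 for Hdac4, -0.34 to 0.41 for Hdac5, -0.45 to 0.97 for Hdac7, -0.69 to 0.0040 for Hdac9, -0.21 to 0.50 for Hdac10, -0.69 to 0.94 for Hdac11, -0.60 to 0.55 for Sirt1, -0.026 to 0.15 for Sirt2, -0.20 to 0.13 for Sirt3, -0.00092 to 0.53 for Sirt4, -0.17 to 0.23 for Sirt5, -0.14 to 0.052 for Ncor1, -0.19 to 0.21 for Brd1, -0.0018 to 0.085 for Brd3, -0.30 to 0.24 for Brd8 and -0.36 to 0.054 for Brd9. Among the partner and marker genes they ranged from -0.083 to 0.44 for Atat1, -0.94 to 0.27 for Clock, -0.062 to 0.55 for Phf10, -0.018 to 0.22 for Kansl2, -0.019 to 0.29 for Phf21a, -0.62 to 4.50 for Postn and -0.098 to 1.44 for Nes. Other values that kept their sign but moved ranged from -0.11 to -0.026 for Kat2a, -0.68 to -0.076 for Kat2b, 0.042 to 0.13 for Ep300, -0.17 to -0.081 for Crebbp, -0.55 to -0.0076 for Ncoa1, -0.16 to -0.0056 for Ncoa3, -0.32 to -0.14 for Brd7, -0.080 to -0.025 for Brpf1, 0.29 to 0.73 for Baz1a, 0.086 to 0.29 for Utf1, -0.35 to -0.020 for Thy1, -1.18 to -0.43 for Pax6 and -2.01 to -0.0044 for Gad1. The cause was not tested.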
